A study of Mus musculus with 16 samples.

Results

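Members of the Wnt pathway were examined in the dentate gyrus of one-year-old mice. They were taken from the gene abundance tables by gene name alone: the Wnt ligands (Wnt followed by a number), the Frizzled receptors (Fzd), the co-receptors Lrp5 and Lrp6, the secreted inhibitors of the Sfrp and Dkk families, and the intracellular effectors Ctnnb1, Axin1, Axin2, Lef1 and the genes whose names begin with Tcf7. This gave 46 of the 24421 gene names listed, made up of 19 ligands, 12 receptors, 8 inhibitors and 7 effectors. The rule used no measured value, although it was set with earlier results of these data known.

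All animals were C57BL/6 males that carried either the normal p16Ink4a gene (p16 WT) or a constitutive deletion of it (p16 KO), which leaves the p19Arf product of the same locus intact. Both genotypes were either sedentary (CTL) or had free access to a running wheel for 12 days (RUN). The knockout was made in FVB mice and bred onto C57BL/6, and it is present in every cell of the animal. Each of the 4 groups was measured in 4 libraries (replicates 1 to 4 of p16 WT CTL, 5 to 8 of p16 KO CTL, 9 to 12 of p16 WT RUN and 13 to 16 of p16 KO RUN), and each library holds the dentate gyri of a pair of mice, so that the animals of a pool cannot be told apart.

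Wnt ligands are lipid-modified secreted proteins that bind Frizzled receptors together with the co-receptors Lrp5 or Lrp6. In the canonical branch, binding stalls a complex that holds Axin and Gsk3 and that marks beta-catenin (Ctnnb1) for degradation, so that beta-catenin reaches the nucleus and acts there with the TCF/LEF factors (Tcf7, Tcf7l1, Tcf7l2 and Lef1). Sfrp proteins bind Wnts outside the cell, and Dkk1, Dkk2 and Dkk4 bind the co-receptors. In the dentate gyrus this pathway is known for its part in the maintenance of neural stem cells and in the birth of new granule neurons.

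The libraries were compared in the pairs named by the study. Set A set running knockouts against sedentary knockouts, Set B the sedentary knockouts against sedentary p16 WT mice, and Set C running against sedentary p16 WT mice. Running knockouts were set against sedentary p16 WT mice in Set D and against running p16 WT mice in Set E, and the first named is higher where a difference is positive. Sets A and B share the p16 KO CTL libraries, Sets B, C and D the p16 WT CTL libraries, and Sets A, D and E the p16 KO RUN libraries. Across all 16 libraries the effect of running over both genotypes, the effect of knockout over both activities and their interaction were also fitted. Levels are given in TPM, a unit corrected for transcript length that sums to the same total in each library. Differences are log2 fold changes on the scale log2(scaled TPM + 0.1), which understates the change of low genes, with the standard error (SE). A limma p is unadjusted, and an adjusted p is corrected over all genes tested.

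Cdkn2a, the targeted gene, lay between 0 and 0.586 TPM in p16 WT libraries and between 0 and 0.413 TPM in p16 KO libraries, so that it does not check the genotype labels at this depth and unit. As a value of the whole gene it also covers p19Arf, which the deletion leaves intact, and would not single out p16Ink4a at any depth. The granule neuron gene Prox1 was present in all libraries at 58.1 to 187 TPM. In 3 sedentary libraries (p16 WT CTL replicate 2, p16 KO CTL replicates 6 and 7) the summed level of 8 nuclear long noncoding RNAs was 479 to 977 TPM, against 1828 to 2533 TPM in the other 13. The summed level of 6 granule neuron genes (Prox1, Dsp, C1ql2, Tdo2, Plk5 and Calb1) ranged from 433 TPM in p16 KO CTL replicate 8 to 1212 TPM in p16 WT CTL replicate 3. The mean coverage per base, relative to the average library, was 0.621 to 0.893 in the 8 running libraries and 0.900 to 1.95 in the 8 sedentary libraries, without overlap, so that depth and running cannot be told apart in Sets A, C and D and in the running comparison. No read counts were used, so that the counting error of single genes is unknown.

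Promoter windows of 300 bases, reaching from 250 bases before to 50 after an annotated start, were taken from RefSeq (GRCm38.p6, the build of the files), where 31 of the 46 members matched, with 40 windows. The 4 windows below are shown because Axin2 and Wnt2 followed the granule neuron level in opposite directions, because Tcf7l2 had the smallest p among the members for the knockout, and because Lef1 had a window with 2 matches to the TCF/LEF core searched for. Capitals mark that core, CTTTGA on either strand, read as TCAAAG on the opposite one.
Axin2 (chr11:108920099-108920398, plus strand): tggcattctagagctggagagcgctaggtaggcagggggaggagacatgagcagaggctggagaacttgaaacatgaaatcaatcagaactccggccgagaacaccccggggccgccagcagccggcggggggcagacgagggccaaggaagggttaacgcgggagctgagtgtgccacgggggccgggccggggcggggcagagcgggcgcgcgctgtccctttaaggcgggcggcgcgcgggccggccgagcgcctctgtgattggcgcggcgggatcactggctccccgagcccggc
Wnt2 (chr6:18030396-18030695, minus strand): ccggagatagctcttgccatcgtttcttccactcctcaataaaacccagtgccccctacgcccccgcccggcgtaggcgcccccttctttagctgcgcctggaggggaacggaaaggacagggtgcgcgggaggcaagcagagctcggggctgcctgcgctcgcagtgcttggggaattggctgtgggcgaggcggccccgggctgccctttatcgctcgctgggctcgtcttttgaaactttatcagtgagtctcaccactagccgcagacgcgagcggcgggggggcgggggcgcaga
Tcf7l2 (chr19:55741560-55741859, plus strand): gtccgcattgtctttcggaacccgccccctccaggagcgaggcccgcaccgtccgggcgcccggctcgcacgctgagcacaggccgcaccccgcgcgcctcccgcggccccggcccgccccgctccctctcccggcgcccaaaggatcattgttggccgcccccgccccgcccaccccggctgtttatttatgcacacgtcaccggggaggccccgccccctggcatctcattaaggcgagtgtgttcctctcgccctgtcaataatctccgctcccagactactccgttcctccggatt
Lef1 (chr3:131156044-131156343, plus strand): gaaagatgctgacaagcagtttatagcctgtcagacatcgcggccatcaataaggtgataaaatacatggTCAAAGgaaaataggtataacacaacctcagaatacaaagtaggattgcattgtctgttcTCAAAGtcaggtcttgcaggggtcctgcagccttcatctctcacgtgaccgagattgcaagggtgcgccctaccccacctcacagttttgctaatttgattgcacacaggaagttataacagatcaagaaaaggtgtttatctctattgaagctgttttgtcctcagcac

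The core was found in 5 of the 40 member windows (12.5%), in Dkk1, Fzd1, Lef1, Wnt5b and Wnt11, against 16% of all 32851 windows in the table. The windows of Axin2, Wnt2 and Tcf7l2 held no match, and those of Axin2 and Tcf7l2 had the same G and C content (70% of bases), above the median of 52.7% over all windows. Wnt2 reached 65.7%, whereas the Lef1 window, which starts inside the gene and not at its first exon, had 43.7%. It was the only one of the 4 Lef1 windows with a match. A match describes these letters only, and the absence of one says nothing on the binding of a factor.

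Of the 46 members, 41 had a mean of at least 0.1 TPM and were tested, and 33 had a mean of at least 1 TPM. Ligands summed to 118 ± 12.6 TPM (SD, 16 libraries), receptors to 106 ± 8.28 TPM, inhibitors to 250 ± 62.7 TPM and effectors to 519 ± 29.1 TPM. Of the inhibitors taken by name, which leave out Frzb (mean 42.3 TPM), Dkk3 made up 95.2% to 98.4%. Ctnnb1 made up 86.5% to 90.1% of the effectors. Wnt7b made up 45.3% to 58.8% of the ligands (mean 52.6%). It held most of that sum except in p16 WT CTL replicates 1 and 2 and p16 KO CTL replicate 8. No single receptor held most of its sum.

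**Figure D1:**
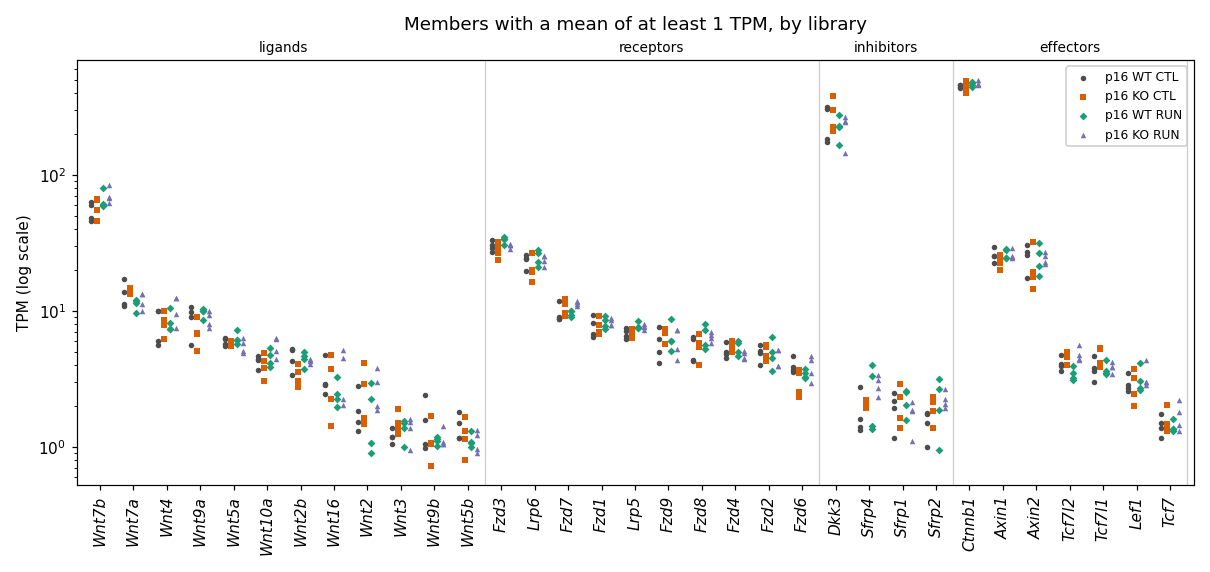
TPM (log axis) of the 33 members with a mean of at least 1 TPM, 1 point per library and 4 points per group, ordered by role and by mean. Ctnnb1 (400 to 503 TPM), Dkk3 (144 to 380 TPM) and Wnt7b (45.5 to 84.1 TPM) stand above the other members, and the 4 groups lie over each other for most genes.

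The ligands were led by Wnt7b, a canonical Wnt known for its action on dendrites and on brain vessels. It measured 45.5, 48.4, 60.3 and 63.2 TPM in p16 WT CTL, and 65.5, 67.1, 55.4 and 46.1 TPM in p16 KO CTL. After running it measured 59.6, 59.7, 60.9 and 80.7 TPM in p16 WT RUN, and 67.9, 62.3, 69.2 and 84.1 TPM in p16 KO RUN. All running libraries were above the lower pair of p16 WT CTL libraries, and p16 KO RUN overlapped p16 WT CTL in a single library. In Set D Wnt7b was higher by 0.38 (log2, SE 0.11) with an unadjusted p of 0.0078 and an adjusted p of 0.373 in limma. On the scaled values, which the tests used, the groups did not meet (45.4 to 61.3 against 63.2 to 82.5 TPM). The exact permutation test gave p = 0.0286, the smallest that 4 against 4 libraries allow, and the unadjusted p stayed under 0.05 without any one of the 8 libraries. Over both genotypes the running difference was 0.23 (SE 0.10, limma p of 0.028, adjusted p = 0.226). That p exceeded 0.05 without p16 WT CTL replicate 1 (0.19, limma p of 0.0641), p16 KO CTL replicate 8 (0.18, limma p of 0.0639), p16 WT RUN replicate 12 (0.18, limma p of 0.0655) or p16 KO RUN replicate 16 (0.19, limma p of 0.0635), and it was 0.0656 with library weights.

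Wnt7a, the close relative of Wnt7b and known in the hippocampus for its action on synapses, was the ligand of next highest level. It measured 11.3, 17.1, 11.0 and 13.7 TPM in p16 WT CTL, 13.5, 14.7, 13.5 and 14.3 TPM in p16 KO CTL, 12.1, 9.75, 11.4 and 11.8 TPM in p16 WT RUN, and 13.3, 10.0, 13.3 and 11.3 TPM in p16 KO RUN. Every p16 KO RUN library lay below every p16 KO CTL library, although by little. In Set A Wnt7a was lower by 0.30 (log2 fold change -0.30, SE 0.11, limma p of 0.0212, adjusted p = 0.227; exact permutation p = 0.0286). The unadjusted p exceeded 0.05 without p16 KO CTL replicate 6 (-0.26, limma p of 0.0571), p16 KO RUN replicate 14 (-0.22, limma p of 0.0583) or p16 KO RUN replicate 16 (-0.27, limma p of 0.0545). It also did so with TPM as deposited (-0.23, limma p of 0.0631), with all 16 libraries in one fit (limma p of 0.0511) and without the 3 libraries low in nuclear RNA (-0.24, limma p of 0.118). Over both genotypes the running difference was -0.26 (SE 0.10, limma p of 0.0178, adjusted p = 0.194) and held its side of 0.05 without any single library. Wnt7a was at 13.5 to 17.1 TPM in the 3 libraries low in nuclear RNA and at 9.75 to 14.3 TPM in the other 13, and without those 3 the running difference was -0.16 (limma p of 0.0952). The part of that RNA in the difference was not tested.

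The ratio of Wnt7b to Wnt7a, as levels, had a mean of 4.24 in the p16 WT CTL libraries and 4.19 in the p16 KO CTL libraries, against 5.80 with running in p16 WT and 5.99 with running in p16 KO mice. The sedentary ratios ran from 2.83 to 5.50 and the running ratios from 4.93 to 7.44, so that the ranges overlapped. This ratio was chosen after the values of both genes were seen and was not tested.

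Among the other ligands, Wnt4 (mean 8.73 TPM), Wnt9a (8.54 TPM), Wnt5a (5.88 TPM), Wnt10a (4.59 TPM), Wnt2b (4.17 TPM), Wnt16 (3.06 TPM), Wnt2 (2.22 TPM), Wnt3 (1.36 TPM), Wnt9b (1.23 TPM) and Wnt5b (1.22 TPM) were above 1 TPM, and none of them had an unadjusted p under 0.05 in any of the 8 comparisons. Wnt5a, the main ligand of the non-canonical branch, was the steadiest, with a coefficient of variation of 9.32% over the 16 libraries. Wnt2 was the least steady of those above 1 TPM (43.2%, from 0.903 to 4.18 TPM). Wnt3, which astrocytes of the hippocampus are known to supply to neural stem cells, stayed between 0.956 and 1.89 TPM, with a running difference of -0.03 (95% interval -0.33 to 0.28) and a knockout difference of 0.18 (-0.13 to 0.49).

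Below 1 TPM lay Wnt10b (mean 0.484 TPM), Wnt1 (0.445 TPM), Wnt6 (0.282 TPM), Wnt8b (0.264 TPM) and Wnt11 (0.244 TPM). Wnt11 measured 0.0701, 0.274, 0.128 and 0.144 TPM in p16 WT CTL and 0.328, 0.237, 0.313 and 0.923 TPM in p16 KO CTL, and these groups overlapped by 1 library. Its difference in Set B was 1.07 (SE 0.43, limma p of 0.0339, adjusted p = 0.625), with an exact permutation p of 0.0571. Without p16 KO CTL replicate 8 it was 0.73 (limma p of 0.0846), and the p also exceeded 0.05 without p16 WT CTL replicate 1 (0.0858), 3 (0.0659) or 4 (0.0616). With a pseudocount of 1 the difference was 0.32 (limma p of 0.055), with the granule list as covariate it was 0.78 (limma p of 0.0533), with all 16 libraries in one fit the limma p was 0.0547, and without the 3 libraries low in nuclear RNA it was 1.67. Wnt8a and Wnt3a were not tested, and were listed at 0 in 11 and 15 of the 16 libraries. Wnt3a had a value in p16 KO CTL replicate 8 alone, of 0.117 TPM.

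The receptors were led by Fzd3, which acts in axon guidance and planar cell polarity. It measured 29.3, 27.1, 30.6 and 33.4 TPM in p16 WT CTL, 32.1, 29.6, 23.9 and 26.8 TPM in p16 KO CTL, 35.0, 33.9, 34.0 and 30.8 TPM in p16 WT RUN, and 30.4, 28.6, 30.4 and 31.3 TPM in p16 KO RUN. The last of the p16 WT RUN libraries fell inside the p16 KO RUN range. In Set E the difference was -0.14 (SE 0.05, limma p of 0.0282, adjusted p = 1.00), with an exact permutation p of 0.0571. The p exceeded 0.05 without p16 WT RUN replicate 9 (0.0754) or 10 (0.0659), or without p16 KO RUN replicate 13 (0.0555) or 14 (0.0697), and it was 0.0655 with all 16 libraries in one fit.

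Fzd7, a receptor of the canonical branch found on stem cells of several tissues, measured 8.75, 11.8, 8.67 and 9.10 TPM in p16 WT CTL, 12.3, 11.3, 9.67 and 9.22 TPM in p16 KO CTL, 10.0, 10.0, 9.39 and 8.97 TPM in p16 WT RUN, and 11.2, 10.9, 11.6 and 11.8 TPM in p16 KO RUN. After running, all p16 KO libraries were above all p16 WT libraries, whereas the sedentary groups overlapped. In Set E Fzd7 was higher by 0.25 (SE 0.07, 95% interval 0.08 to 0.42, limma p of 0.0078, adjusted p = 1.00; exact permutation p = 0.0286). In Set B the difference was 0.21 (-0.12 to 0.54), and over both activities the knockout difference was 0.23 (SE 0.08, limma p of 0.0126, adjusted p = 0.674). Without p16 WT CTL replicate 2, one of the 3 libraries low in nuclear RNA, the Set B difference was 0.34 (limma p of 0.0206), and with library weights it was 0.30 (limma p of 0.0397). The unadjusted p of Set E and that over both activities stayed under 0.05 without any one library. In the same Set E 4 of 5 newborn neuron genes had a higher mean (median 0.26, 2 called higher, against 2.11% of all genes). The part of newborn neurons in the Set E differences of the members was not tested.

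Fzd4, a receptor of brain vessels that binds Norrin as well as Wnts, measured 5.91, 5.01, 4.85 and 4.50 TPM in p16 WT CTL, 5.81, 6.01, 5.57 and 4.97 TPM in p16 KO CTL, 6.06, 5.02, 5.80 and 4.65 TPM in p16 WT RUN, and 4.92, 5.08, 4.49 and 4.41 TPM in p16 KO RUN. The knockout groups overlapped by 1 library. In Set A the difference was -0.30 (SE 0.12, limma p of 0.0336, adjusted p = 0.248), in Set C it was 0.07 (SE 0.14), and the interaction was -0.37 (SE 0.17, limma p of 0.0465, adjusted p = 0.797). The exact permutation p of Set A was 0.0571. The limma p of Set A exceeded 0.05 in 6 of the 8 fits without 1 library, being 0.0513 without p16 KO CTL replicate 5, 0.0898 without 6 and 0.07 without 7, and 0.0528 without p16 KO RUN replicate 13, 0.0776 without 15 and 0.0817 without 16. Without the 3 libraries low in nuclear RNA it was -0.20 (limma p of 0.187), and the interaction was -0.29 (limma p of 0.168). With TPM as deposited these were -0.24 (limma p of 0.0777) and -0.32 (limma p of 0.0772), and with no filter the limma p of the interaction was 0.0512. In the same Set A all 7 endothelial genes had a higher mean (median 0.51, 2 called higher, against 10.7% of all genes), and they summed to 66.3 to 133 TPM in p16 KO CTL and 114 to 170.2 TPM in p16 KO RUN. The 6 oligodendrocyte genes (median -0.40, 3 called), the 6 astrocyte genes (-0.31, 2 called) and the 6 microglia genes (-0.28, 2 called) all had a lower mean, against 7.74% of all genes called lower. All 5 newborn neuron genes had a higher mean in Set A (median 0.54, 2 called higher). All 5 CA1 pyramidal neuron genes had a lower mean (median -0.49, 1 called lower). The part of these cell types in the Set A differences of Fzd4 and the other members was not tested.

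Fzd6, a receptor of the planar cell polarity branch, measured 4.66, 3.71, 3.90 and 3.58 TPM in p16 WT CTL, 3.70, 2.32, 2.54 and 3.50 TPM in p16 KO CTL, 3.28, 3.20, 3.72 and 3.50 TPM in p16 WT RUN, and 4.64, 4.39, 2.97 and 3.53 TPM in p16 KO RUN. Both low values of p16 KO CTL were in replicates 6 and 7, where the 7 endothelial genes also summed to 66.3 and 69.0 TPM, against 95.9 to 170 TPM elsewhere. The difference was 0.30 (SE 0.20) in Set A and -0.21 (SE 0.14) in Set C, and the interaction was 0.51 (SE 0.23, limma p of 0.0466, adjusted p = 0.797). Without the 3 libraries low in nuclear RNA, 2 of them being replicates 6 and 7, it was 0.28 (limma p of 0.272) and the Set A difference was 0.066. Under quantile normalization the interaction was 0.39 (limma p of 0.0858), and with no filter its limma p was 0.0532. The part of endothelial RNA in this difference was not tested, and in such bulk tissue fewer cells of a type and less RNA per cell cannot be told apart. Leaving out 1 library, the limma p of the Fzd4 interaction exceeded 0.05 in 10 of 16 fits, namely without p16 WT CTL replicate 3 or 4, p16 KO CTL replicate 5, 6 or 7, p16 WT RUN replicate 9 or 11, or p16 KO RUN replicate 13, 15 or 16 (0.0549 to 0.10), with values from -0.45 to -0.31. That of Fzd6 did so in 10 fits, without p16 WT CTL replicate 1, 2 or 3, p16 KO CTL replicate 6 or 7, p16 WT RUN replicate 9, 10 or 12, or p16 KO RUN replicate 13 or 14 (0.0562 to 0.102), with values from 0.40 to 0.63.

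Lrp6 (mean 23.2 TPM) was above its paralogue Lrp5 (7.32 TPM) in all libraries, and neither had an unadjusted p under 0.05 in any comparison. The same held for Fzd1 (8.00 TPM), Fzd9 (6.24 TPM), Fzd8 (5.95 TPM), Fzd2 (4.85 TPM) and, below 1 TPM, Fzd10 (0.320 TPM). Fzd5 had a mean of 0.904 TPM, with 0.741, 0.520, 0.796 and 0.693 TPM in p16 WT CTL, 1.01, 0.892, 0.857 and 0.413 TPM in p16 KO CTL, 0.887, 1.13, 0.852 and 1.03 TPM in p16 WT RUN, and 1.03, 1.25, 0.926 and 1.44 TPM in p16 KO RUN. Every running library was above every p16 WT CTL library. Its difference was 0.67 (SE 0.22, limma p of 0.0128, adjusted p = 0.433; exact permutation p = 0.0286) in Set D, 0.48 (SE 0.29) in Set A and 0.44 (SE 0.22) in Set C. Over both genotypes the running difference was 0.46 (SE 0.17, limma p of 0.0182, adjusted p = 0.196), and it stayed under 0.05 without any single library. Under quantile normalization it was 0.31, with a limma p of 0.133. With a pseudocount of 1 it was 0.23 (limma p of 0.012), and the Set D difference was 0.35 (limma p of 0.0085). The Set A difference was 0.23 without p16 KO CTL replicate 8, and ran from 0.22 with the granule list as covariate to 0.71 without the 3 libraries low in nuclear RNA. That of Set C had a limma p of 0.0748, against 0.0222 with no filter and 0.0109 without variance trend.

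Among the secreted inhibitors Dkk3 stood far above the rest. This divergent Dickkopf does not bind the co-receptors as Dkk1 does, and in the hippocampus it is a known marker of mossy and pyramidal neurons. It measured 308, 316, 184 and 176 TPM in p16 WT CTL, 226, 211, 300.4 and 380 TPM in p16 KO CTL, 226, 276, 166 and 230.4 TPM in p16 WT RUN, and 245, 265, 250 and 144 TPM in p16 KO RUN. All groups overlapped, and the spread inside each was wide. The highest Dkk3 value was in p16 KO CTL replicate 8, which also had the highest Wnt11 value (0.923 TPM). In that library 5 CA1 pyramidal neuron genes summed to 271 TPM and 4 mossy cell genes to 141 TPM. Both sums were the highest of the 16 libraries, whose medians were 90.1 and 101 TPM. The part of these cells in either level was not tested. The running difference over both genotypes was -0.24 (95% interval -0.64 to 0.16), and the knockout difference over both activities was 0.13 (-0.27 to 0.53). When 1 library was left out, the running difference ran from -0.32 (without p16 WT CTL replicate 4) to -0.14 (without p16 KO RUN replicate 16), and the knockout difference from 0.051 to 0.23 without the same libraries. With the granule list as covariate they were -0.093 and 0.013, and without the 3 libraries low in nuclear RNA -0.19 and 0.24. None of these had a limma p under 0.05.

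Sfrp4 measured 1.60, 1.35, 2.75 and 1.40 TPM in p16 WT CTL, 2.23, 2.00, 1.92 and 2.01 TPM in p16 KO CTL, 1.43, 3.31, 1.35 and 4.00 TPM in p16 WT RUN, and 2.32, 3.40, 2.74 and 3.12 TPM in p16 KO RUN. All p16 KO RUN libraries were above all p16 KO CTL libraries, and they overlapped p16 WT CTL through its replicate 3. In Set D Sfrp4 was higher by 0.71 (SE 0.24, limma p of 0.0148, adjusted p = 0.438; exact permutation p = 0.0571), and the unadjusted p stayed under 0.05 without any single library. In Set A the difference was 0.41 (SE 0.16, limma p of 0.0342, adjusted p = 0.249; exact permutation p = 0.0286), and 6 of 8 fits without 1 library exceeded 0.05. Under quantile normalization it was 0.24 (limma p of 0.221), and the limma p was 0.211 with all 16 libraries in one fit and 0.0698 with library weights. With the granule list as covariate it was 0.38 (limma p of 0.0701), and without the 3 libraries low in nuclear RNA 0.40 (limma p of 0.0949). Leaving out 1 library, the p was 0.0602 without p16 KO CTL replicate 6, 0.0594 without 7 and 0.0621 without 8, and 0.0962 without p16 KO RUN replicate 14, 0.0534 without 15 and 0.0796 without 16. The p16 WT RUN libraries fell into 2 low and 2 high values.

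Sfrp2 was also widely spread in p16 WT RUN (0.945, 2.65, 1.88 and 3.18 TPM). The other groups measured 1.01, 1.74, 1.51 and 1.77 TPM in p16 WT CTL, 2.34, 1.39, 2.13 and 1.84 TPM in p16 KO CTL, and 1.92, 2.27, 2.68 and 2.06 TPM in p16 KO RUN. The last group lay wholly above p16 WT CTL. In Set D the difference was 0.55 (SE 0.22, limma p of 0.0314, adjusted p = 0.522; exact permutation p = 0.0286). The limma p was 0.0678 under quantile normalization and 0.0891 with all 16 libraries in one fit, and it exceeded 0.05 without p16 WT CTL replicate 1 (0.0796) or 3 (0.0553), or without p16 KO RUN replicate 14 (0.065) or 15 (0.0881). Sfrp1, the remaining gene above 1 TPM with an Sfrp name, had a mean of 1.98 TPM and a highest value of 2.89 TPM, with no p under 0.05.

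The Dickkopf genes that block the co-receptors were near the lower limit of the tables. Dkk2 had a mean of 0.103 TPM, Dkk1 had a value in 3 of 16 libraries with a highest of 0.104 TPM, and Dkk4 was listed at 0 in all. Sfrp5 was listed at 0 in 8 libraries and reached 0.339 TPM at most.

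**Figure D2:**
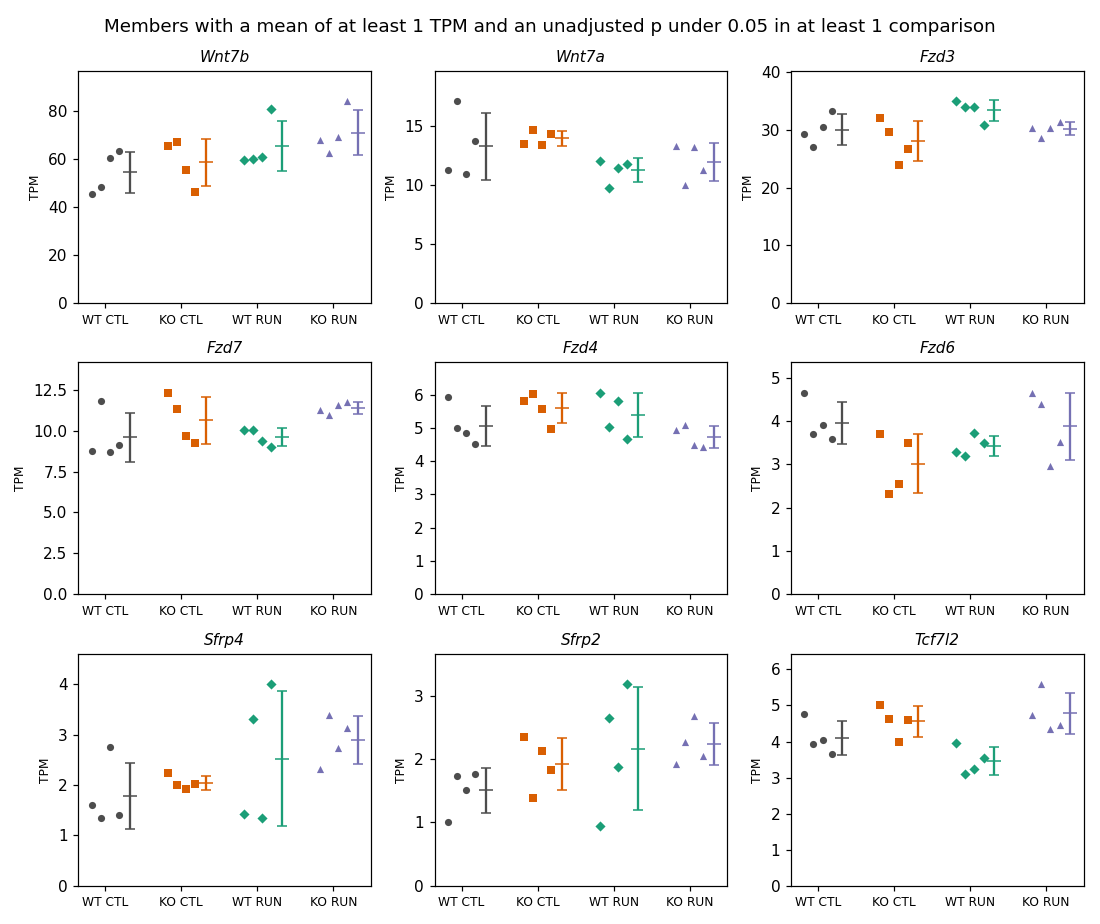
TPM of 9 members in each library (points) with the group mean and SD beside them (bars, 4 libraries), vertical axes from 0. Fzd7 and Tcf7l2 in p16 KO RUN lie above p16 WT RUN in all libraries, Wnt7a in p16 KO RUN lies below p16 KO CTL, and in p16 WT RUN Sfrp4 runs from 1.35 to 4.00 TPM.

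Ctnnb1, which encodes beta-catenin, was the most abundant effector and the steadiest member of all, with a coefficient of variation of 5.39%. It measured 434, 443, 460.3 and 459 TPM in p16 WT CTL, 463, 490.3, 429 and 400 TPM in p16 KO CTL, 455, 441, 472 and 479 TPM in p16 WT RUN, and 461, 466, 465 and 503 TPM in p16 KO RUN. The running difference over both genotypes was 0.03 (95% interval -0.07 to 0.12), and the knockout difference over both activities was 0.05 (-0.05 to 0.14). Without the 3 libraries low in nuclear RNA the running difference was 0.08, with a limma p of 0.0458, and the knockout difference was 0.0085. The knockout difference ran from 0.0037 to 0.068 over the alternatives, and from 0.018 to 0.074 when 1 library was left out. These are levels of messenger RNA, whereas the pathway acts on the stability of the protein, which was not measured here.

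Tcf7l2, a TCF factor that is strongly expressed in the thalamus and in maturing oligodendrocytes, had the smallest p of all members for the knockout. It measured 4.77, 3.93, 4.05 and 3.65 TPM in p16 WT CTL, 5.02, 4.63, 3.98 and 4.60 TPM in p16 KO CTL, 3.97, 3.09, 3.24 and 3.53 TPM in p16 WT RUN, and 4.73, 5.59, 4.35 and 4.45 TPM in p16 KO RUN. After running, the p16 KO libraries were all above the p16 WT libraries, whereas the sedentary groups overlapped. In Set E Tcf7l2 was higher by 0.46 (SE 0.13, 95% interval 0.16 to 0.77, limma p of 0.0073, adjusted p = 1.00; exact permutation p = 0.0286). Set B gave 0.21 (-0.09 to 0.52), and over both activities the knockout difference was 0.34 (SE 0.09, limma p of 0.0018, adjusted p = 0.674). Without any one library the Set E difference kept an unadjusted p between 0.00628 and 0.022. The summed level of 9 thalamus and habenula genes was 33.1 to 57.2 TPM in p16 KO RUN and 32.8 to 54.5 TPM in p16 WT RUN, and that of 6 oligodendrocyte genes 1058 to 1399 TPM and 1151 to 1676 TPM. The 4 oligodendrocyte precursor genes summed to 51.5 to 69.0 TPM in p16 KO RUN and 46.1 to 58.0 TPM in p16 WT RUN. All 4 had a higher mean in Set E (median 0.26, 1 of 4 at p under 0.05, against 3.87% of all genes) and for the knockout over both activities (median 0.27, 1 of 4, against 7.12%). In the sedentary groups the oligodendrocyte sum was 1376 to 2326 TPM in p16 KO and 916 to 1935 TPM in p16 WT, and the part of these cells in the Tcf7l2 level was not tested. Tcf7l2 has many isoforms of unequal length, so that its TPM also depends on how reads were assigned to them.

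Axin2, a negative regulator that is itself a well known target of canonical Wnt signalling, had a mean of 23.8 TPM and ran from 14.6 to 31.9 TPM, a far wider range than that of its paralogue Axin1 (mean 25.3 TPM, 20.2 to 29.5 TPM). Its running difference over both genotypes was 0.07 (95% interval -0.23 to 0.38) and its knockout difference -0.10 (-0.40 to 0.20). They were 0.17 and -0.20 when p16 KO CTL replicate 5 was left out, 0.0096 and -0.038 when replicate 7 of that group was, and -0.013 and -0.033 with the granule list as covariate. The factors Tcf7l1 (mean 4.01 TPM), Lef1 (3.06 TPM) and Tcf7 (1.53 TPM) had no unadjusted p under 0.05 in any comparison. Tcf7l1 was at 4.68 to 5.31 TPM in the 3 libraries low in nuclear RNA and at 2.99 to 4.34 TPM in the other 13, without overlap. Wnt2b was opposite, at 2.76 to 3.40 TPM against 3.56 to 5.30 TPM.

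Counted over the comparisons, no member had an adjusted p under 0.05 in any of the 8. At that threshold 3 genes (0.0173%) of all 17317 tested were called in Set A, 1 (0.00577%) in Set E and 130 (0.751%) in the running comparison over both genotypes, and none (0%) in Sets B, C and D, the interaction and the knockout comparison. The smallest adjusted p of a member was 0.194, for Wnt7a after running. At an unadjusted p under 0.05 (the threshold of the study), Set A called 3 of 41 members against 18.5% of all genes. Set B called 1 (6.69% of all genes), Set C called 0 (4.81%), Set D called 4 (8.63%) and Set E called 3 (3.87%). There were 2 in the interaction (5.48%), 3 in the running comparison (17.9%) and 2 in the knockout comparison (7.12%). These counts are near or below the share of all genes except in Set E, where 3 of 41 is 7.32%.

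The median log2 fold change of the 41 members was 0.06 beside 0.02 over all genes in Set A, and 0.09 beside -0.01 in Set B. Set C had 0.04, Set D 0.07 and Set E 0.05, each beside 0.00. For running over both genotypes it was 0.07 beside 0.01, and for the knockout 0.06 beside 0.00. The 95% intervals lay within 1 log2 unit of 0 for 40 of 41 members in the running comparison and for 38 of 41 in the knockout comparison, and within 0.5 for 25 and 24. Smaller differences in either direction are therefore not shown to be absent.

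**Figure D3:**
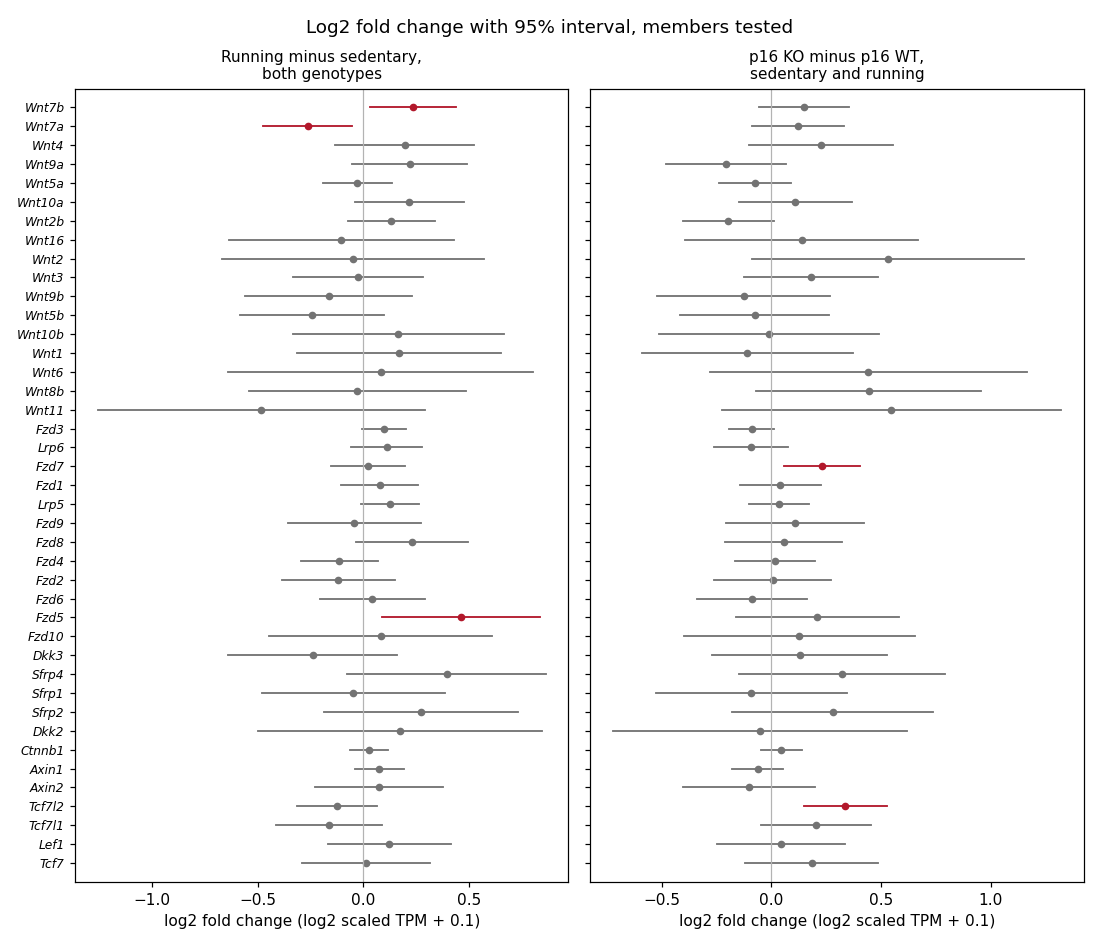
Log2 fold change (horizontal axis) of the 41 members tested, by role and by falling mean level, with 95% intervals from limma, for running (left) and knockout (right) over all 16 libraries. Red marks an unadjusted p under 0.05, which held for Wnt7b, Wnt7a and Fzd5 on the left and for Fzd7 and Tcf7l2 on the right, and the widest intervals are those of low genes such as Wnt11.

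Each of the 33 members above 1 TPM was set against the log2 summed level of the granule neuron list over the 16 libraries and against that of the endothelial list over the 13 libraries not low in nuclear RNA, 66 relations in all, with p-values from 100000 permutations adjusted over all 66. For the granule list 4 relations had an adjusted p under 0.05. Dkk3 was lower where the granule list was higher (r = -0.91, rho = -0.94, p = 1e-05 for both, the smallest these permutations can give, adjusted p = 0.00066). Wnt2 had the same direction (r = -0.76, p = 0.00029, adjusted p = 0.00638; rho = -0.81, p = 0.00018). Axin1 (r = 0.79, p = 0.00026, adjusted p = 0.00638; rho = 0.85, p = 9e-05) and Axin2 (r = 0.74, p = 0.00068, adjusted p = 0.0112; rho = 0.82, p = 0.00019) were higher with it.

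Without the 2 libraries farthest from the median, r was -0.91 for Dkk3, -0.70 for Wnt2, 0.76 for Axin1 and 0.71 for Axin2. Taken as deviations from the group means, it was -0.90, -0.83, 0.76 and 0.71. Without the 3 libraries low in nuclear RNA it was -0.90, -0.73, 0.84 and 0.79. For Tcf7 r was -0.68 (adjusted p = 0.0503), and -0.45 without the 2 farthest libraries. By rho, Tcf7 and Lrp6 also had an adjusted p under 0.05. The points of all relations share their libraries, depth and scaling, and relations with the other marker lists, such as that of mossy cells, were not run. The granule list itself had no gene with an unadjusted p under 0.05 in any of the 8 comparisons, and with its level as a covariate, an alternative chosen after seeing the data, Set A had 3 of 41 members called (20% of all genes in that fit), Set B had 1 (6.82%), Set C had 1 (8.64%), Set D had 6 (13.5%), Set E had 4 (5.04%), the interaction 2 (5.76%), running 4 (19.5%) and knockout 3 (8.00%).

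**Figure D4:**
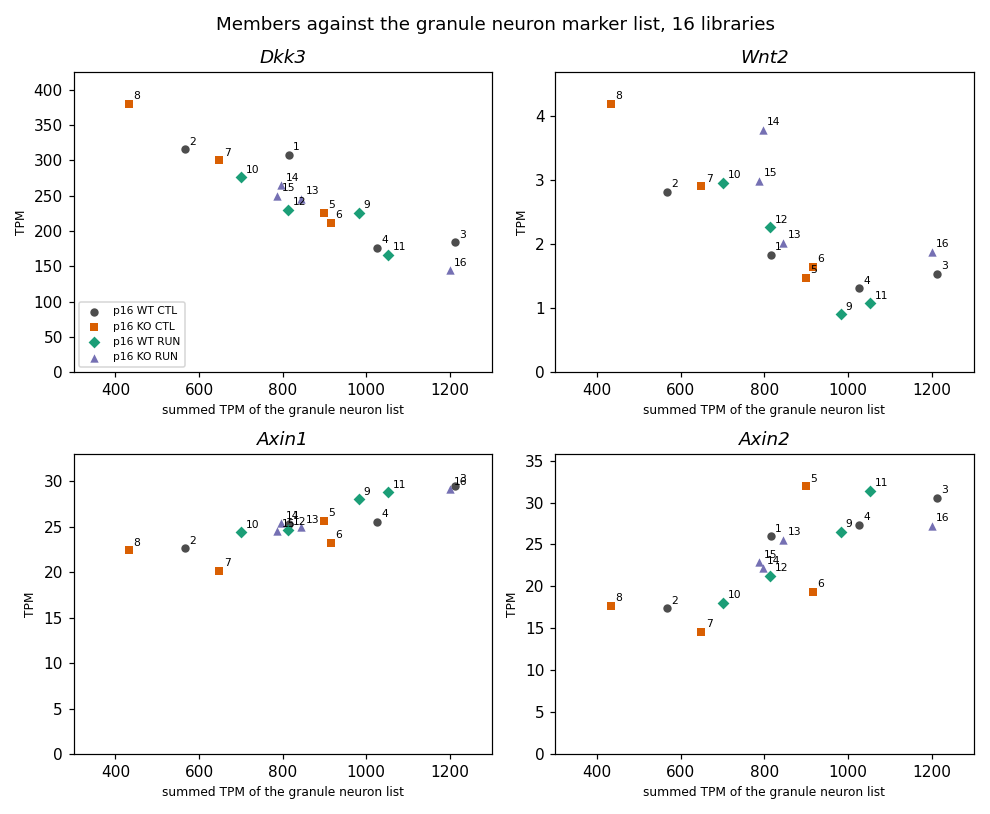
TPM of Dkk3, Wnt2, Axin1 and Axin2 (vertical axes, from 0) against the summed TPM of 6 granule neuron genes (horizontal axis), 1 point per library, numbered by replicate. Dkk3 descends from 380 TPM at the lowest granule sum (433 TPM, p16 KO CTL replicate 8) to 144 TPM in p16 KO RUN replicate 16, and the running groups begin at 701 TPM (p16 WT RUN) and 787 TPM (p16 KO RUN), so that the 3 lowest sums are sedentary.

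The 3 libraries left out had the lowest endothelial sums (66.3 to 95.9 TPM, against 114 to 170 TPM in the 13 kept). The relations were thus not read over the low range of that list, and none was run over all 16 libraries. For the endothelial list none of the 33 relations in those 13 had an adjusted p under 0.05. The largest was that of Lef1, known to be active in brain endothelium (r = 0.60, p = 0.0301, adjusted p = 0.165; rho = 0.45, p = 0.127), which was 0.43 without the 2 farthest libraries. In p16 KO CTL replicates 6 and 7, both low in the endothelial list, Lef1 measured 2.46 and 1.99 TPM. These are also low in nuclear RNA, and Lef1 was at 1.99 to 2.59 TPM in the 3 libraries of that kind and at 2.61 to 4.39 TPM in the other 13, without overlap.

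The other genes of the pathway were taken from 8 lists with 77 genes, of which 71 were tested. At an unadjusted p under 0.05, 9 were higher and 3 lower in Set A, against 10.7% and 7.74% of all genes. Set B had 2 higher and 5 lower (3.15% and 3.54% of all genes), Set C had 0 and 1 (2.69% and 2.13%), Set D had 3 and 3 (4.97% and 3.66%) and Set E had 2 and 0 (2.11% and 1.76%). There were 2 and 1 in the interaction (2.95% and 2.54%), 9 and 2 for running over both genotypes (9.87% and 8.02%), and 2 and 3 for the knockout (3.87% and 3.25%). None had an adjusted p under 0.05. The smallest was 0.098, for Aes after running.

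Nuclear cofactors held that gene. Aes, a short Groucho-type protein that counteracts the Tle corepressors, averaged 671 TPM. Its group means were 733 ± 30.4 TPM in p16 KO CTL and 626 ± 13.9 TPM in p16 KO RUN (SD, 4 libraries each), without overlap. Under quantile normalization its difference was -0.15 in Set A, 0.075 in Set B (limma p of 0.154), -0.16 in the interaction and -0.073 for running. As scaled here it was lower in Set A by 0.29 (log2 fold change -0.29, SE 0.07, limma p of 0.0019, adjusted p = 0.147), in Set B it was 0.20 (SE 0.08, limma p of 0.0405), and the interaction was -0.27 (SE 0.09, limma p of 0.0077, adjusted p = 0.797). The running difference over both genotypes was -0.16 (limma p of 0.0024). The corepressor Tle4 had 62.0 ± 5.82 TPM in p16 KO RUN, against 51.7 ± 4.20 TPM in p16 KO CTL and 52.4 ± 5.58 TPM in p16 WT CTL. Its differences were 0.19 in Set A (limma p of 0.0192), 0.24 in Set D (limma p of 0.0127) and 0.20 in Set E (limma p of 0.037). Tle3 was at 16.6 ± 3.34 TPM in p16 KO CTL against 11.8 ± 1.93 TPM in p16 WT CTL (0.55, SE 0.17, limma p of 0.0094, adjusted p = 0.625), and Chd8 differed by 0.23 in Set A (SE 0.08, limma p of 0.0218). Chd8 was at 39.8 to 44.4 TPM in the 3 libraries low in nuclear RNA and at 46.6 to 62.2 TPM in the other 13, and without those 3 it differed by 0.13 (limma p of 0.166).

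Cytoplasmic components included Dvl1, a Dishevelled protein that relays the signal from Frizzled, at 72.3 ± 2.47 TPM in p16 KO RUN and 58.1 ± 8.30 TPM in p16 KO CTL, without overlap (Set A 0.26, SE 0.08, limma p of 0.0094, adjusted p = 0.193). Dvl2 differed by 0.38 in Set A and by -0.45 in Set B, and its p16 KO CTL mean (14.9 ± 3.64 TPM) was the group that both sets share. Dvl1 was at 50.1 to 53.3 TPM in the 3 libraries low in nuclear RNA and at 63.5 to 75.6 TPM elsewhere, and Dvl2 at 10.5 to 14.8 TPM and at 16.9 to 25.7 TPM. Without those 3 the Set A differences were 0.13 (Dvl1, limma p of 0.0596) and 0.14 (Dvl2, limma p of 0.158), and without p16 KO CTL replicate 7 alone that of Dvl2 was 0.25. Btrc, the subunit that brings beta-catenin to the ubiquitin ligase, was at 55.2 ± 0.659 TPM in p16 KO RUN and 61.4 ± 2.62 TPM in p16 WT CTL (Set D -0.16, SE 0.05, limma p of 0.012, adjusted p = 0.426). The tankyrases, which destabilise Axin, differed after running over both genotypes by 0.13 (Tnks, limma p of 0.0304) and 0.08 (Tnks2, limma p of 0.0388), and Tnks2 by 0.11 in Set D (limma p of 0.0411).

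In the planar cell polarity list 3 of 10 genes had a higher mean in Set A at p under 0.05 (10.7% of all genes), and the same 3 after running over both genotypes (9.87%). Prickle1 was at 87.3 ± 6.74 TPM in p16 KO RUN and 67.5 ± 7.59 TPM in p16 KO CTL, without overlap (0.31, SE 0.07, limma p of 0.0018, adjusted p = 0.145). The seven-pass cadherins Celsr3 and Celsr2 differed by 0.74 (SE 0.27) and 0.22 (SE 0.09), with overlapping groups. Celsr3 was at 12.4 to 18.6 TPM in the 3 libraries low in nuclear RNA and at 27.2 to 46.8 TPM in the other 13, and Celsr2 at 82.1 to 88.9 TPM and at 104 to 127 TPM. Without those 3 the Set A differences were 0.21 (Celsr3, limma p of 0.151), 0.08 (Celsr2, limma p of 0.272) and 0.27 (Prickle1, limma p of 0.02), and after running over both genotypes the limma p was over 0.05 for the 3 genes. The part of nuclear RNA in the differences of these and the other pathway genes was not tested.

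Of the other antagonists, Frzb averaged 42.3 TPM. It is a member of the Sfrp family whose gene name did not match the choice by name. It was lower in p16 WT RUN (37.8 ± 1.24 TPM) than in p16 WT CTL (46.0 ± 6.33 TPM), without overlap (Set C -0.28, SE 0.08, limma p of 0.0051, adjusted p = 0.937), and by 0.27 over both genotypes (log2 fold change -0.27, limma p of 0.0062, adjusted p = 0.136). Kremen1, a partner of the Dkk proteins, was at 17.0 ± 2.45 TPM in p16 KO RUN against 13.0 ± 0.884 TPM in p16 KO CTL (Set A 0.31, limma p of 0.0275) and 13.1 ± 1.53 TPM in p16 WT CTL (Set D 0.36, limma p of 0.016). Dkkl1 differed by -0.37 in Set A (limma p of 0.034). Notum, an enzyme that removes the lipid from Wnts, was at 0.983 ± 0.548 TPM in p16 KO CTL and 1.79 ± 0.270 TPM in p16 WT CTL (Set B -0.89, SE 0.35, limma p of 0.0314).

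The receptor Ror1 differed by -0.73 in Set B (SE 0.31, limma p of 0.0419) and by -0.51 over both activities, and Adgra2, a co-activator of Wnt7a and Wnt7b signalling in brain vessels, by 0.20 in Set E (limma p of 0.0285) and by 0.22 over both activities (SE 0.07, limma p of 0.0062, adjusted p = 0.674). Among the target genes, Ccnd1 was at 22.2 ± 3.94 TPM in p16 KO RUN and 31.0 ± 7.02 TPM in p16 WT CTL (Set D -0.47, SE 0.19, limma p of 0.0372), and in the R-spondin axis Znrf3 differed by 0.23 after running (limma p of 0.0441). Over all alternatives run, 39 differences of the named pathway genes had an unadjusted p under 0.05 as first fitted, and 27 of them exceeded 0.05 in at least 1 alternative or without at least 1 library. The other 12 were those of Aes in Set A, the interaction and running, Prickle1 in Set A, Tle3 in Set B, Frzb in Set C and running, Tle4 and Btrc in Set D, Kremen1 in Set D and running, and Adgra2 for the knockout. Porcn and Wls, which act in the secretion of all Wnts, had no p under 0.05. A further 3 pathway genes, Trabd2b, Ascl2 and Draxin, had an unadjusted p under 0.05 but a mean under 1 TPM (0.873, 0.310 and 0.477 TPM), and are named outside the rule for named genes, after their values were seen.

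Trabd2b, a membrane-bound protease that inactivates Wnts, measured 1.77, 0.916, 1.07 and 1.68 TPM in p16 WT CTL, 0.304, 0.199, 0.246 and 0.604 TPM in p16 KO CTL, 1.83, 0.665, 1.91 and 0.215 TPM in p16 WT RUN, and 1.21, 0.703, 0.418 and 0.227 TPM in p16 KO RUN. The sedentary groups did not overlap, whereas the running groups did. The study had already described Trabd2b as lower in Set B, from these same libraries. In Set B it was lower by 1.72 (log2 fold change -1.72, SE 0.34, limma p of 0.00064, adjusted p = 0.625; exact permutation p = 0.0286), and the limma p stayed under 0.05 in the 10 alternatives that kept the gene and without any single library. With a pseudocount of 1 the difference was -0.79. Set E gave -0.59 (-2.04 to 0.86), and over both activities the knockout difference was -1.16 (SE 0.38, limma p of 0.0087, adjusted p = 0.674), or -0.56 with a pseudocount of 1. In Set D it was -1.12 (limma p of 0.0272), or -0.54 with a pseudocount of 1, and that p was 0.0566 with all 16 libraries in one fit and exceeded 0.05 without p16 WT CTL replicate 1 or 4 or p16 KO RUN replicate 15 or 16 (at most 0.0728).

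Ascl2, a transcription factor and known Wnt target in the gut, was at 0.296 to 0.581 TPM in p16 WT CTL and 0.0346 to 0.250 TPM in p16 KO CTL, without overlap (Set B -1.27, SE 0.40, limma p of 0.0107, adjusted p = 0.625). Its interaction was 1.78 (SE 0.61, limma p of 0.0106, adjusted p = 0.797), and both kept a limma p under 0.05 in the alternatives that kept the gene (10 and 9) and without any single library. With a pseudocount of 1 they were -0.35 and 0.52, so that the size depends on it. Draxin, an axon guidance protein, differed by 0.67 in Set A (SE 0.29, limma p of 0.0458), which exceeded 0.05 in 5 of 10 alternatives and in 6 of 8 fits without 1 library. Its interaction was 0.90 (SE 0.35, limma p of 0.0205, adjusted p = 0.797), and that p exceeded 0.05 under quantile normalization, without the 3 libraries low in nuclear RNA (0.80, limma p of 0.0781) and without p16 KO RUN replicate 16 (0.0503).

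Among the named pathway genes above 1 TPM, some differences kept an unadjusted limma p under 0.05 without any single library. Those that also did so without the 3 libraries low in nuclear RNA, where these enter, were those of Aes in Set A, in the interaction and after running, Prickle1 in Set A, Tle3 in Set B, Frzb in Set C and after running, Btrc and Tle4 in Set D, Kremen1 in Set D and after running, and Adgra2 for the knockout. Below 1 TPM the same held for Trabd2b in Set B and for the knockout (limma p of 0.00902 and 0.0447 without those 3 libraries). It also held for Ascl2 in Set B and in the interaction (limma p of 0.0255 and 0.0214). Without those 3 libraries the p also exceeded 0.05 for Tle4, Kremen1 and Dkkl1 in Set A (0.16, 0.32 and -0.29), for Notum in Set B (-0.36), for Ccnd1 and Tnks2 in Set D (-0.32 and 0.09) and, after running, for Znrf3, Dvl1, Tnks and Tle4 (0.12, 0.08, 0.09 and 0.09) and for Tle4 over both activities (0.12).

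Leaving out 1 library, 4 of 8 fits stayed under 0.05 for Dvl2, Kremen1 and Celsr2 in Set A and 5 of 8 for Chd8, Dkkl1 and Celsr3. In Set B it was 4 of 8 for Ror1 (lost without p16 WT CTL replicate 1, 3 or 4 or p16 KO CTL replicate 7, the last giving -0.46), 3 of 8 for Dvl2 and Notum (lost for both without p16 WT CTL replicate 1, 3 or 4 or p16 KO CTL replicate 6 or 7) and 2 of 8 for Aes (lost also without p16 KO CTL replicate 8). In Set D 2 of 8 fits stayed under 0.05 for Ccnd1 and for Tnks2, and in Set E 4 of 8 for Tle4 and 3 of 8 for Adgra2. Over all 16 libraries, 12 of 16 fits stayed under 0.05 for Tnks and Celsr3, 9 of 16 for Dvl2 and Tle4 over both activities, 7 of 16 for Ror1 and Tnks2, and 6 of 16 for Znrf3, Prickle1 and Tle4 after running.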

How the data were processed

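Sequencing libraries were prepared with an mRNA-Seq kit from total RNA of the dentate gyrus, 16 in all, 4 per group, each from pooled mice. The groups come from the sample labels. Replicate numbers are not shared between groups, and nothing pairs the libraries. Per the study's methods and processing notes, the authors processed the reads with bcl2fastq 2.20 and Cutadapt 1.11, trimmed them with ERNE, aligned them to mm10 with STAR and computed gene abundance with StringTie (versions of the last not given in the sources used here). The deposited TPM values are StringTie abundances, corrected for length and scaled to a fixed total. The deposited coverage values (mean signal per base) served for the relative depth alone. The authors' own comparisons used counts from HTSeq and DESeq2, which are not used here.

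Entries that share a gene name were added up. Scaling factors (0.920 to 1.03) were median ratios to the average library, taken from the 13226 genes that reach 1 TPM everywhere. Genes averaging 0.1 TPM or more (17317) entered limma 3.58.1 (R 4.3.3) as log2(scaled TPM + 0.1), with empirical Bayes moderation and a variance trend, and adjusted by Benjamini-Hochberg over all of them. Sets were fitted on their 8 libraries, the other comparisons on all 16. Two-sided exact permutation tests of 4 against 4 libraries used the same scaled log2 values and have 0.0286 as their smallest p, whereas overlap is read from TPM as deposited. P-values measure the spread between pools of mice. The procedure was tested on simulated data. Correlations and permutations were run in Python 3.11.15 with scipy 1.17.1.

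Every member is named. Values per library are given for members with an unadjusted p under 0.05 and a mean of at least 1 TPM, and for the most abundant of each role; those of Wnt11 and Fzd5, which lie below 1 TPM, were added later. Other pathway genes above 1 TPM were named at p under 0.05, at most 3 per list and comparison. The members, lists and tests were chosen with earlier results of these data known.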

Additional observations from a re-analysis of the deposited data

Results flagged for a closer look

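In 8 of the 132 groups of 4 libraries examined (33 members in 4 groups) 1 library stood far from the other 3, by a rule that chance meets in about 1 of 20 groups. The library was the highest for Ctnnb1 in p16 KO RUN replicate 16 (503 TPM, the others 461 to 466 TPM), for Lef1 in p16 KO RUN replicate 13 (4.39 TPM, the others 2.87 to 3.02 TPM), for Tcf7 in p16 WT RUN replicate 12 (1.62 TPM, the others 1.32 to 1.37 TPM), for Wnt7b in p16 WT RUN replicate 12 (80.7 TPM, the others 59.6 to 60.9 TPM), for Wnt9b in p16 KO RUN replicate 15 (1.42 TPM, the others 1.05 to 1.09 TPM), for Fzd7 in p16 WT CTL replicate 2 (11.8 TPM, the others 8.67 to 9.10 TPM) and for Lrp5 in p16 WT RUN replicate 10 (8.51 TPM, the others 7.50 to 7.63 TPM). It was the lowest for Dkk3 in p16 KO RUN replicate 16 (144 TPM, the others 245 to 265 TPM), the library with the highest granule sum of its group (1200 TPM).

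The effect of running differed between the genotypes at an unadjusted p under 0.05 for Fzd4 (-0.37, limma p of 0.0465) and Fzd6 (0.51, limma p of 0.0466), with an adjusted p of 0.797 for both in limma, among 41 members with that test.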

How the results depend on the processing

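No member reached an adjusted p under 0.05 under any alternative run. No called difference of a member or named pathway gene changed its sign. Of the uncalled differences run the same way, that of Ctnnb1 after running turned to -0.0018 without p16 KO CTL replicate 8 (range -0.0018 to 0.055 when 1 library was left out) and that of Axin2 to -0.013 with the granule list as covariate and -0.10 without the 3 libraries low in nuclear RNA. That of Wnt3 turned to 0.011 with TPM as deposited, 0.0081 with library weights and 0.033 with the granule list as covariate, and ran from -0.067 to 0.053 when 1 library was left out. Counts of members with an unadjusted p under 0.05 that moved by more than 1.5 times are given with the share of all genes called in the same fit. Without variance trend the count was 3 in Set B (6.15%), 1 in Set C (4.68%) and 4 for the knockout (6.78%), and with library weights 5 in Set B (22%), 7 in Set D (10.9%) and 9 for the knockout (21.9%). Set B had 0 with a pseudocount of 1 (6.62%) and with a mean of at least 1 TPM (6.44%), and quantile normalization gave 2 in Set B (7.30%) and 1 in the interaction (5.49%). With no filter the count was 2 in Set C (5.60%) and 0 in the interaction (5.23%), and with TPM as deposited it was 1 in the interaction (5.28%) and 6 for running (17.9%). In alternatives chosen after seeing the data, the granule list as covariate gave 1 in Set C (8.64%), and the fit without the 3 libraries low in nuclear RNA gave 0 in Set A (8.49%), 8 in Set D (11.2%), 0 in the interaction (7.25%) and 4 for the knockout (6.48%). Leaving out each library in turn, the count ran from 0 to 6 in Set A (11.7% to 27.4% of all genes), 0 to 6 in Set B (3.22% to 17.5%), 0 to 2 in Set C (3.07% to 5.88%), 3 to 8 in Set D (6.53% to 11.2%), 2 to 5 in Set E (2.81% to 6.05%), 0 to 2 in the interaction (3.57% to 13.7%), 2 to 6 for running (13.1% to 24.1%) and 2 to 7 for the knockout (4.16% to 15.7%). The highest counts in Sets B and D and for the knockout came without p16 WT CTL replicate 2, with 17.5%, 11.2% and 15.7% of all genes called. The cause of these shifts was not tested. No paired analysis was possible because the groups share no replicate numbers. The median half-width of the 95% intervals was 0.302 log2 units for running and for knockout, and no read counts set a lower limit for genes near 0.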
